A study of Mus musculus with 10 samples.

Results

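The 39 genes described here carry fatty acid oxidation in mitochondria and peroxisomes or build the peroxisome. They were found by matching the Ensembl identifiers of the count tables to GRCm38 symbols, 39 of 54838 genes in the tables. They comprise 19 genes of the mitochondrial pathway, 5 peroxisomal oxidation enzymes, 12 peroxins and 3 genes of another or a mixed compartment. Ribosome-bound RNA was collected by translating ribosome affinity purification (TRAP), in which a green fluorescent tag on the ribosomal protein L10a is pulled down from the cells that carry it. All 10 libraries came from male C57BL/6 mice of about 10 weeks with the genotype Drd2-Cre;Eef1a1LSL.eGFPL10a/+ (MC-TRAP), so that the dorsal and the ventral group carried the same alleles and no treatment. The 5 dorsal libraries were made from the shorter dorsal segment of the hippocampus and the 5 ventral libraries from the longer ventral segment after the ventral subiculum had been cut away, with tissue of 5 mice pooled in each library. Each hippocampus was split into both segments, so the groups drew on the same mice, but the labels do not say which dorsal and ventral pools share animals. The tag was switched on by Cre under Drd2 control, which in the hippocampus marks mossy cells (MCs) of the dentate hilus but also sparse GABAergic interneurons and neurons of the ventral subiculum, so the samples are MC-enriched populations and not pure MCs.

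Fatty acids enter mitochondria as carnitine esters and are shortened there in cycles of dehydrogenation, hydration, another dehydrogenation and thiolytic cleavage. The electrons of the initial step pass to the respiratory chain through the electron transfer flavoprotein. Peroxisomes run a related cycle on very long-chain and branched fatty acids, in which an oxidase passes electrons to oxygen. The enzymes of the peroxisome are made in the cytosol and brought in by peroxins, the Pex proteins, which also build and divide the organelle. In brain this work is generally credited more to astrocytes than to neurons, and loss of peroxins causes severe disorders of brain development.

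Promoter sequence, which the choice of genes did not use, was available in RefSeq (GRCm38.p6) for 33 of the 39 genes, in 36 windows that run from 250 bases before to 50 bases after a start. Each window was searched on both strands for GCGCATGC, an element bound by NRF1, for AAGGTCA, an element bound by estrogen-related receptors and other nuclear receptors, and for CCAAT, bound by NF-Y. GCGCATGC stood in 4 of the 16 windows of mitochondrial genes (25%), those of Acadm, Etfa, Etfdh and Acad10, in 0 of 4 windows of peroxisomal enzymes, in 0 of 13 of peroxins, and in 2.71% of all 32851 windows. The stretches that hold it are given here in the direction of the gene, with matches to any of the 3 motifs, in either orientation, in capitals. They are shown because 3 of these genes had higher levels in the ventral samples and the remaining gene, Acad10, had a higher level, from few counts, in the dorsal samples.
Acadm, chr3:153944774-153944893, minus strand: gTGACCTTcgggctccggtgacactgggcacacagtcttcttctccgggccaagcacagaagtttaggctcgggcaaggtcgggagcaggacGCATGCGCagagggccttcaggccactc
Etfa, chr9:55512244-55512373, minus strand: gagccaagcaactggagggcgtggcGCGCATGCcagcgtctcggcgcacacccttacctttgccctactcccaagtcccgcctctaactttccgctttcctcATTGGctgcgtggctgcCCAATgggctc
Etfdh, chr3:79628876-79628905, minus strand: tgcttctaggGCGCATGCGCacacgcgaga
Acad10, chr5:121660511-121660540, minus strand: ggaaaggggcgaggccccgggcGCGCATGC
The Acadm stretch starts 250 bases before the start and holds AAGGTCA in reverse besides GCGCATGC in reverse, and Acadm was the only member with AAGGTCA in a window (2.78% of the members' windows and 4.72% of all windows). In Etfa a match to GCGCATGC was followed by CCAAT in each direction, and CCAAT stood in 41.7% of the members' windows and 37.4% of all windows. The Etfdh stretch lies within an annotated exon of another start of the same gene. Hadha and Hadhb, which encode the subunits of the mitochondrial trifunctional protein, are transcribed away from each other, and the 85 bases between their annotated starts, read in the direction of Hadhb, hold none of the 3 motifs.
Hadhb and Hadha, chr5:30155163-30155247, plus strand: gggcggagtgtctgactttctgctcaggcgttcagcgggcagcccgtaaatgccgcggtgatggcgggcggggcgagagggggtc

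Counts of sequenced fragments on genes ranged from 11138676 to 20594364 per library, at which 3 counts of a gene equal 0.142 to 0.282 CPM (counts divided by the library total in units of 1000000, scaled here with trimmed-mean factors). No pair of libraries of the same group agreed within sampling noise, so all 10 were used. Read pairs on no annotated gene made up 21.8 to 33.9% of all in the dorsal libraries and 11.6 to 19.3% in the ventral libraries, and mRNA of the mitochondrial genome summed to 2773 to 3524 CPM in the dorsal and 447 to 1257 CPM in the ventral libraries. Of 8 MC markers 6 passed the low-count filter and Glipr1 and Csf2rb2 did not. Drd2 was measured at 28.1 ± 3.96 and 20.7 ± 4.36 CPM (mean ± SD, n = 5 each) in dorsal and ventral samples, and Calb2, which marks ventral MCs, at 65.2 ± 9.32 and 616 ± 94.6 CPM. Satb1 was at 270 ± 28.8 and 450 ± 33.2 CPM and Sv2c at 93.1 ± 10.96 and 33.7 ± 9.06 CPM. Calb2 and Satb1 were higher in the ventral samples (edgeR, adjusted p = 1.06e-08 and 0.000151) and Sv2c in the dorsal samples (adjusted p = 3.81e-05). Another 3 of the 6, Drd2 among them, did not pass the test. The 8 markers of GABAergic interneurons ranged from Vip, at 3.62 ± 0.808 and 4.28 ± 2.04 CPM, to Gad2, an enzyme of GABA synthesis, at 2853 ± 453 and 3174 ± 407 CPM. All 8 had a log2 fold change, dorsal over ventral, below 0 (50.4% of all genes tested did). An adjusted p below 0.05 (edgeR) in the ventral direction was reached by 5 of them, where 14.6% of all genes did so. These were Gad1, Sst, Pvalb, Npy and Lhx6, with Sst at 454 ± 16.2 and 715 ± 133 CPM. The vesicular GABA transporter Slc32a1 was at 51.5 ± 4.91 and 54.4 ± 8.93 CPM and the vesicular glutamate transporter Slc17a7 at 212 ± 46.1 and 175 ± 28.7 CPM. Of the 4 glutamatergic markers only Slc17a7 did not pass the test (edgeR, adjusted p = 0.176). Slc17a6 was higher in the ventral samples, at 11.5 ± 1.76 and 29.8 ± 4.64 CPM (adjusted p = 0.00011). Gria2, at 1143 ± 98 and 651 ± 73 CPM, and Gria3, at 271 ± 26.5 and 167 ± 12.8 CPM, were higher in the dorsal samples (adjusted p = 7.1e-05 and 0.000246). Summed over the list, 10 astrocyte markers gave 2004 to 2286 CPM in the dorsal and 869 to 1473 CPM in the ventral libraries, 8 oligodendrocyte markers 2455 to 2922 and 911 to 1748 CPM, and 8 interneuron markers 3268 to 4363 and 3951 to 5191 CPM, and no marker of these lists was at 0 in all libraries of a group.

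Among these genes, more passed the test in the ventral than in the dorsal direction. Of the 38 genes that passed the low-count filter (above 1 CPM in at least 2 libraries, on library totals without the trimmed-mean factors), 29 had a log2 fold change, dorsal over ventral, below 0, against 50.4% of the 16806 genes tested, and the median over the 38 genes was -0.52 against -0.0044 over all genes tested. A gene was called enriched when it met 2 conditions. Its adjusted p (edgeR, quasi-likelihood, Benjamini-Hochberg over all genes tested) had to be below 0.05, and its mean CPM plus 1 had to differ between the groups by a log2 ratio beyond 0.58. By this rule 12 members were ventral-enriched, where 9.85% of all genes tested were, and 2 members were dorsal-enriched, where 15.7% of all genes tested were. The dorsal calls were Cpt1a and Acad10, and Acad10 passed the low-count filter only through dorsal libraries. All members are protein-coding. Of the 13549 protein-coding genes tested, 1397 were ventral-enriched and 1540 dorsal-enriched, which leans less to the dorsal side than all genes tested. By adjusted p alone, 15 members were lower in the dorsal samples (14.6% of all genes) and 2 were higher (19% of all genes). In 14 members every ventral library lay above every dorsal library (8.36% of all genes), and in 2 members the reverse held (9.81% of all genes). The p-values measure the spread between these pools of mice. In bulk RNA of this kind, fewer cells that carry a transcript and less of it per cell cannot be told apart. The summed astrocyte and oligodendrocyte markers, 5 of 8 interneuron markers, the mitochondrial genome and the share of reads on no gene also differed between the groups. So did the MC markers Calb2, Satb1 and Sv2c and the glutamatergic markers Slc17a6, Gria2 and Gria3. The part that these had in the differences of the members was not tested gene by gene. With the share of reads on no gene entered as a covariate, 6 members were past both thresholds in the ventral direction, where 2.02% of all genes were. The fold threshold was still taken on mean CPM plus 1, which the covariate does not change. Pex19, at a log2 fold change of -0.71 with the covariate (edgeR, adjusted p = 0.0476), was under the threshold on that scale and is not counted. Of the 12 ventral calls 5 were kept (Acadm, Decr1, Etfa, Acox3 and Pex7), Ehhadh was gained at a log2 fold change of -4.69 (adjusted p = 0.0286), and the dorsal calls of Cpt1a and Acad10 were lost. The share was 21.8 to 33.9% in the dorsal and 11.6 to 19.3% in the ventral libraries, without overlap. This fit therefore cannot separate the share from the group, and calls kept or lost in it do not show how firm they are.

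By class, the median log2 fold change was -0.39 over 18 mitochondrial genes, with 4 ventral-enriched and 2 dorsal-enriched. It was -0.81 over 5 peroxisomal enzymes, of which all had a log2 fold change below 0 and 3 were ventral-enriched, and -0.60 over 12 peroxins, of which 10 were below 0 and 5 were ventral-enriched. Over all genes tested, 9.85% were ventral-enriched and 15.7% dorsal-enriched. Of 27 tested peroxisomal genes outside the members 1 was ventral-enriched, and of 5 other genes with a Pex symbol 0 were. The members were chosen with earlier results of these data known. The difference between the classes was not tested. After the trend of each library with GC content and gene length had been taken out, which moved the median of all genes to -0.14, the medians were -0.47, -0.89 and -0.71. The number of ventral-enriched members rose to 19, where 16.3% of all genes were called. With this correction the fold threshold was taken on edgeR's log2 fold change, which without the correction gave 13 ventral-enriched members.

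**Figure D1:**
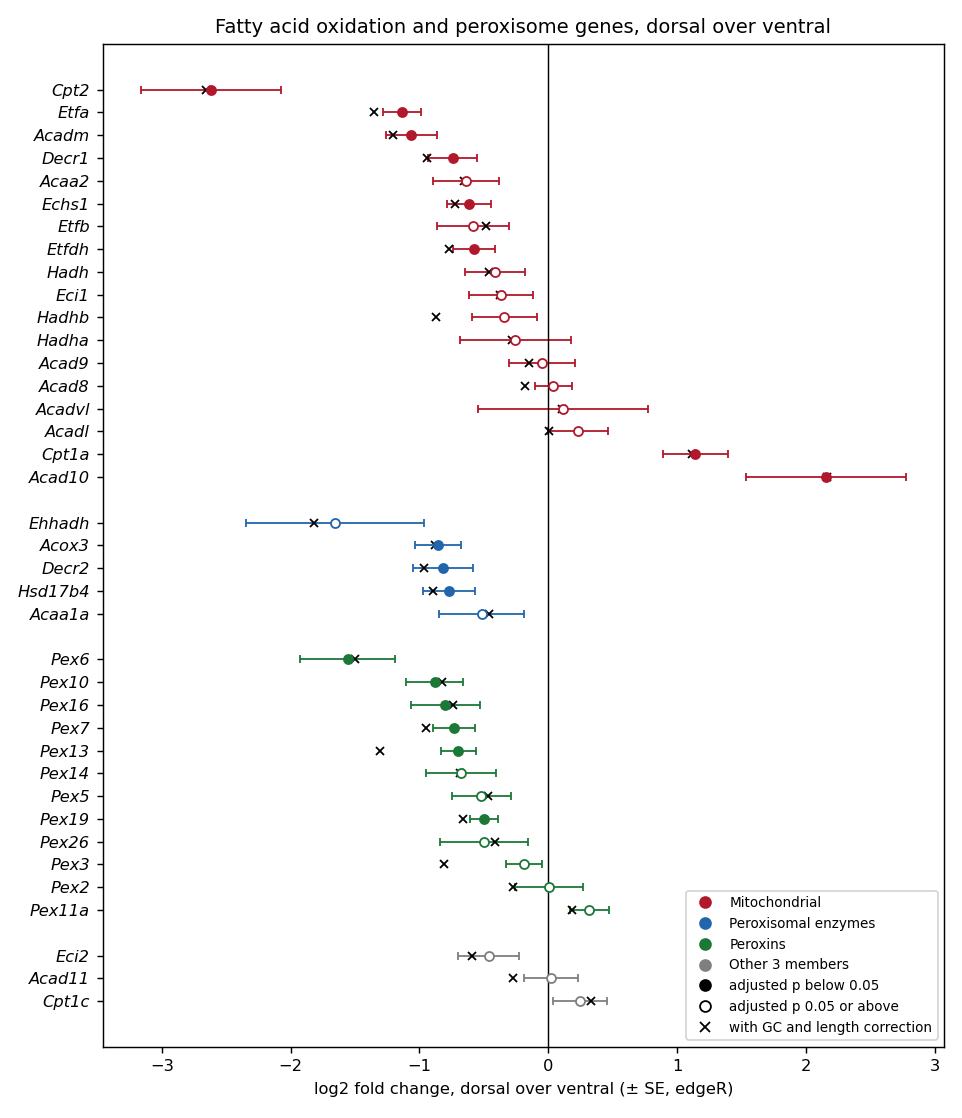
Log2 fold change, dorsal over ventral, of the 38 tested members with its standard error (edgeR, 5 libraries a group), by class; filled points have an adjusted p below 0.05 and crosses mark the value after correction for GC content and exonic length. The points of 13 of 18 mitochondrial genes, 5 of 5 peroxisomal enzymes and 10 of 12 peroxins lie left of 0, and Cpt1a and Acad10 are the filled points on the right.

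The class medians were also followed library by library. For each gene the deviation of log2(CPM + 1) from its mean over the 10 libraries was taken, and the median over a class was -0.32 to -0.15 in the dorsal and 0.20 to 0.34 in the ventral libraries for the peroxins. For the peroxisomal enzymes it was -0.73 to -0.11 and 0.28 to 0.55. Mitochondrial genes gave -0.24 to -0.11 and -0.022 to 0.38, the lowest ventral value being that of replicate 2 and near the dorsal range without overlap. Over all genes tested the same measure stayed between -0.036 and 0.020 in the dorsal and between -0.033 and 0.0086 in the ventral libraries.

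**Figure D2:**
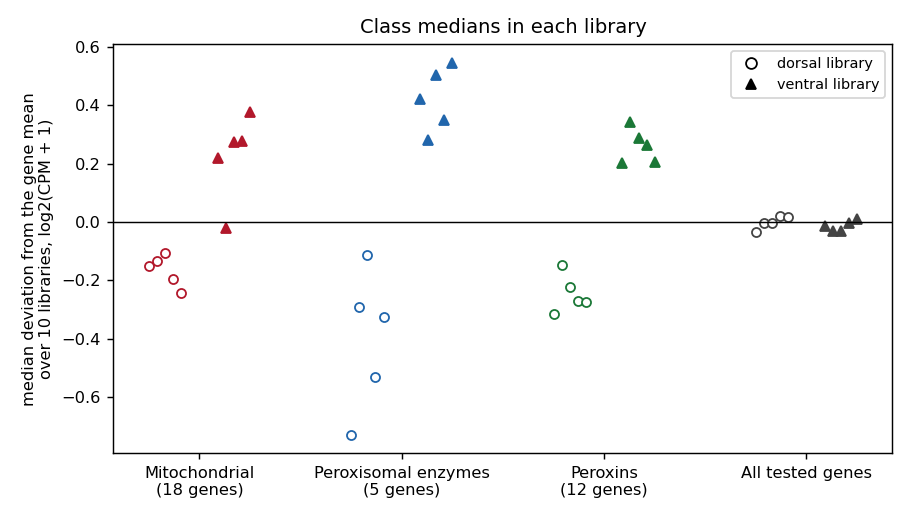
Median deviation of log2(CPM + 1) from the gene mean over 10 libraries, for each library and class (open circles, dorsal; triangles, ventral). All ventral libraries lie above all dorsal libraries in the 3 member classes, least widely for the mitochondrial genes, while the medians over all genes tested stay near 0 in both groups.

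Cpt1a and Cpt2, the acyltransferases at either end of the carnitine shuttle, differed in opposite directions. Cpt1a makes acylcarnitine at the outer mitochondrial membrane, the step that commits fatty acids to oxidation, and Cpt2 turns it back into acyl-CoA inside. Cpt1a (ENSMUSG00000024900, chr19:3322334-3385733, plus strand) was measured at 7.06, 7.21, 7.84, 5.89 and 4.87 CPM in dorsal libraries 1 to 5. Ventral levels of Cpt1a were 2.94, 2.82, 3.04, 2.59 and 3.35 CPM. Every dorsal library lay above every ventral one, and Cpt1a was dorsal-enriched by 2.21-fold (log2 fold change 1.14 ± 0.25 (SE), adjusted p = 0.00407, edgeR). Cpt2 (ENSMUSG00000028607, chr4:107903981-107923610, minus strand) was measured at 0.0941, 1.95, 0.409, 0.42 and 0 CPM in dorsal libraries 1 to 5. Ventral levels of Cpt2 were 2.66, 3.79, 3.72, 4.43 and 4.72 CPM. These came from dorsal counts of 1, 30, 6, 7 and 0 and ventral counts of 48, 43, 44, 70 and 100. All ventral libraries were above all dorsal ones, among which replicate 2 stood apart. Cpt2 was ventral-enriched by 6.14-fold (log2 fold change -2.62 ± 0.54 (SE), adjusted p = 0.00222), and without dorsal replicate 2 its log2 fold change was -3.88. With the share of reads on no gene as a covariate the log2 fold changes were 0.90 for Cpt1a (adjusted p = 0.277) and -3.21 for Cpt2 (adjusted p = 0.106). That share did not overlap between the groups, so this fit cannot separate it from the group. Another 3 genes of the shuttle did not pass the test in edgeR: Slc25a20, the carrier of acylcarnitine across the inner membrane, had a log2 fold change of -0.02 ± 0.30 (SE) (adjusted p = 0.961), the acetyltransferase Crat of 0.08 ± 0.16 (SE) (adjusted p = 0.736) and the carnitine transporter Slc22a5 of 0.63 ± 0.39 (SE) (adjusted p = 0.231).

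Among the acyl-CoA dehydrogenases, which start each cycle and divide the fatty acids by chain length, the medium-chain enzyme was ventral-enriched. Acadm (ENSMUSG00000062908, chr3:153922357-153944632, minus strand) was measured at 11.3, 16.6, 15.7, 11.5 and 12 CPM in dorsal libraries 1 to 5. Ventral levels of Acadm were 25.1, 23.2, 41.6, 28.2 and 24.8 CPM. The groups did not overlap, and ventral replicate 3 lay well above the other ventral libraries. Acadm was 2.09-fold higher in the ventral samples (log2 fold change -1.06 ± 0.20 (SE), adjusted p = 0.00158), and its log2 fold change stayed between -1.15 and -0.91 when any 1 library was left out. Acadl, the long-chain enzyme and the most highly expressed dehydrogenase per length, was measured at 27.3, 27.3, 29.4, 30.6 and 31.1 CPM in dorsal libraries 1 to 5. Ventral levels of Acadl were 39.2, 31.3, 13.3, 21.4 and 18.6 CPM. The ventral libraries spread widely around the narrow dorsal range, and no difference passed the test (log2 fold change 0.23 ± 0.23 (SE), adjusted p = 0.467). Acadvl, the very long-chain enzyme, was low at 0.26 to 1.88 CPM in dorsal and 0 to 1.86 CPM in ventral libraries (adjusted p = 0.913), and 42.9% of the Acadvl exons overlap the gene Dvl2, which makes its counts uncertain. Acads, the short-chain enzyme and among the lowest of the members, was not tested: its counts were 1, 2, 1, 5 and 8 in the dorsal and 0, 1, 14, 2 and 5 in the ventral libraries, and only ventral replicate 3 exceeded 1 CPM.

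The other 3 dehydrogenases act on other substrates or in other roles. Acad10 had dorsal counts of 7, 21, 14, 13 and 7 and ventral counts of 1, 0, 5, 3 and 6. On the CPM scale it was at 0.659, 1.36, 0.954, 0.781 and 0.55 CPM in dorsal libraries 1 to 5. Ventral levels of Acad10 were 0.0555, 0, 0.422, 0.19 and 0.283 CPM. Every dorsal library lay above every ventral one, and Acad10 was dorsal-enriched (log2 fold change 2.16 ± 0.62 (SE), adjusted p = 0.0125). However, only dorsal replicates 2 and 3 exceeded 1 CPM on library totals, and it failed the low-count filter when either was left out. Acad10 was thus tested only through the group where it is high, so its call and separation are not independent of the filter. Acad8, which degrades a product of valine, was measured at 23.7 to 31 CPM in dorsal and 23.9 to 34.6 CPM in ventral libraries (log2 fold change 0.04 ± 0.14 (SE), adjusted p = 0.853). Acad9, also an assembly factor of respiratory complex I, was measured at 5.78 to 12.7 and 5.37 to 12.6 CPM (log2 fold change -0.05 ± 0.26 (SE), adjusted p = 0.907). The groups overlapped in both genes.

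Of the 3 genes that take electrons from these dehydrogenases to the respiratory chain, 2 passed the test, both in the ventral direction, where 14.6% of all genes did. Etfa, the alpha subunit of the electron transfer flavoprotein (ENSMUSG00000032314, chr9:55454508-55512243, minus strand), was measured at 31.6, 20.9, 25.6, 23.6 and 24.9 CPM in dorsal libraries 1 to 5. Ventral levels of Etfa were 52.9, 68.9, 57.7, 49.5 and 48.5 CPM. The lowest ventral library was well above the highest dorsal library, and Etfa was 2.2-fold higher in the ventral samples (log2 fold change -1.13 ± 0.15 (SE), adjusted p = 0.000146), the smallest adjusted p of the 38 genes. Etfdh, which hands the electrons on to ubiquinone, was measured at 15, 15.5, 17.3, 13.2 and 14.5 CPM in dorsal libraries 1 to 5. Ventral levels of Etfdh were 19.9, 17.8, 27.7, 22.5 and 24.6 CPM. The groups did not overlap, though by a narrow margin, and Etfdh passed the test with a log2 fold change of -0.58 ± 0.16 (SE) (adjusted p = 0.0155) without reaching the fold threshold. Etfb, the beta subunit, was measured at 2.07 to 6.37 CPM in dorsal and 4.22 to 7.59 CPM in ventral libraries, with overlap between the groups (log2 fold change -0.59 ± 0.28 (SE), adjusted p = 0.121). Since 58.2% of the Etfb exons overlap other annotated genes, its counts are uncertain and its level cannot be set against that of Etfa, its partner.

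Of the 5 genes for the later steps of the mitochondrial cycle, Echs1 alone passed the test. Echs1, the short-chain enoyl-CoA hydratase, was measured at 18, 11.6, 17.9, 17.2 and 16.6 CPM in dorsal libraries 1 to 5. Ventral levels of Echs1 were 23, 18.5, 26.1, 26.4 and 28.8 CPM. Dorsal replicate 2 was the lowest library, the groups did not overlap, and Echs1 passed the test without reaching the fold threshold (log2 fold change -0.62 ± 0.17 (SE), adjusted p = 0.0146). Hadh, which follows it in the cycle, had a log2 fold change of -0.41 ± 0.23 (SE) (adjusted p = 0.187), and Acaa2, the thiolase at the end, of -0.63 ± 0.26 (SE) (adjusted p = 0.069), which was past the thresholds at -0.80 without dorsal replicate 2. Hadha and Hadhb form the trifunctional protein that does the same steps on long chains, and their counts did not follow each other across libraries. Hadha was measured at 27.3, 27.4, 79.3, 29.4 and 28 CPM in dorsal libraries 1 to 5. Ventral levels of Hadha were 24.6, 19.6, 26.5, 102 and 52.6 CPM. Dorsal replicate 3 and ventral replicates 4 and 5 stood far above the rest. Hadhb was measured at 13.5, 10.6, 7.84, 9.43 and 7.78 CPM in dorsal libraries 1 to 5. Ventral levels of Hadhb were 17.1, 6.78, 9.46, 11.3 and 14.4 CPM, with dorsal replicate 3 among the lowest dorsal values. Neither differed between the groups beyond its spread (Hadha log2 fold change -0.26 ± 0.43 (SE), adjusted p = 0.676; Hadhb -0.34 ± 0.25 (SE), adjusted p = 0.31), and Hadha changed sign to 0.28 without ventral replicate 4.

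Of the auxiliary enzymes for unsaturated fatty acids, Decr1, the mitochondrial 2,4-dienoyl-CoA reductase (ENSMUSG00000028223, chr4:15917240-15945507, minus strand), was measured at 7.24, 13.4, 14, 9.19 and 10.8 CPM in dorsal libraries 1 to 5. Ventral levels of Decr1 were 19.6, 15.8, 22.2, 17.1 and 18 CPM. The ventral libraries all lay above the dorsal ones, and Decr1 was ventral-enriched by 1.67-fold (log2 fold change -0.74 ± 0.19 (SE), adjusted p = 0.0103). Eci1, the mitochondrial enoyl-CoA isomerase, was measured at 5.59 to 8.38 CPM in dorsal and 5.83 to 11.1 CPM in ventral libraries and overlapped (log2 fold change -0.37 ± 0.25 (SE), adjusted p = 0.267).

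**Figure D3:**
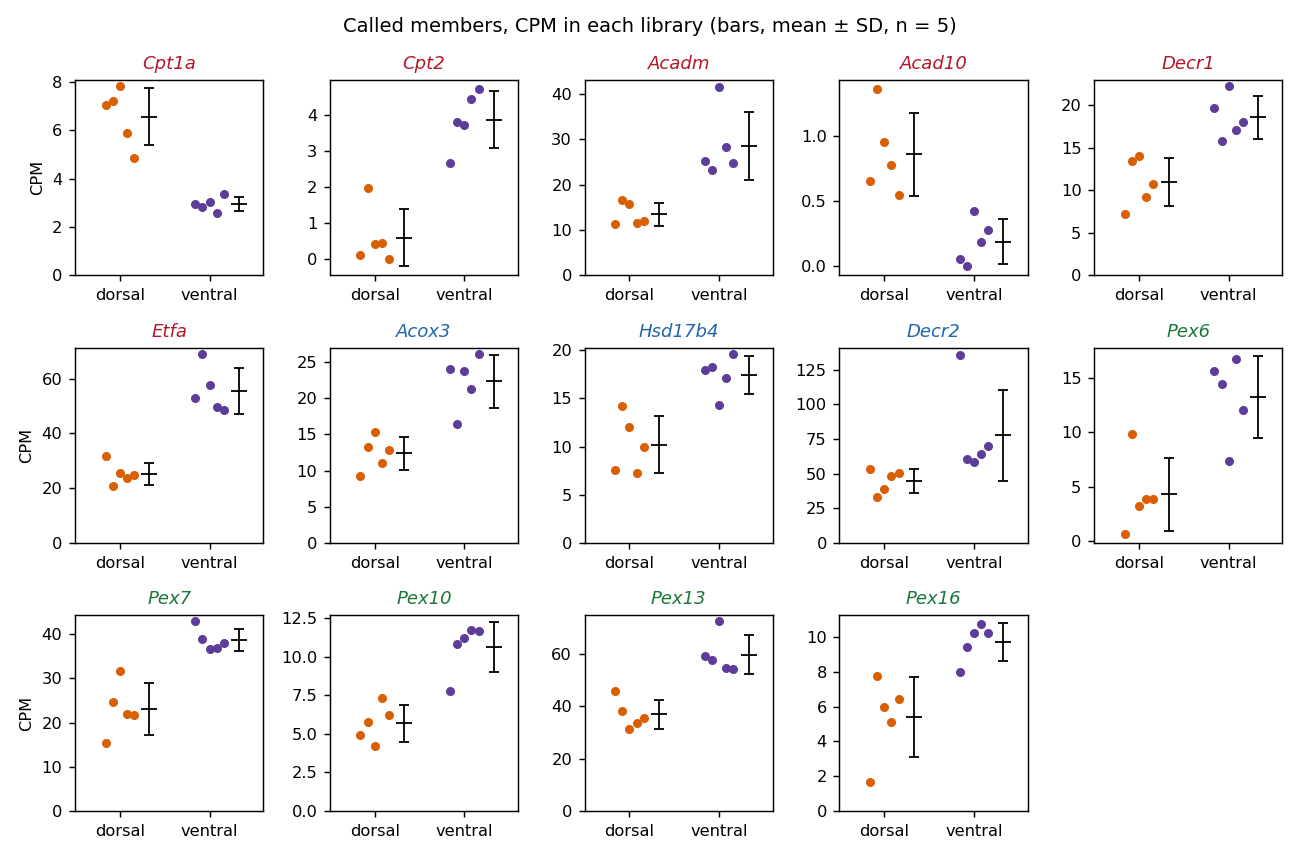
CPM in each library (points; mean ± SD beside them, n = 5 a group) of the 14 members called enriched; each panel has its own axis. Cpt1a and Acad10 are higher in the dorsal libraries and the other 12 in the ventral libraries, and only in Pex6 do the groups overlap.

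Of the 5 peroxisomal oxidation enzymes among the members, 3 were ventral-enriched, where 9.85% of all genes tested were. Acox3, an acyl-CoA oxidase of branched fatty acids (ENSMUSG00000029098, chr5:35583040-35615352, plus strand), was measured at 9.31, 13.3, 15.3, 11.1 and 12.9 CPM in dorsal libraries 1 to 5. Ventral levels of Acox3 were 24, 16.5, 23.7, 21.2 and 26.1 CPM. The groups did not overlap, and Acox3 was 1.81-fold higher in the ventral samples (log2 fold change -0.86 ± 0.18 (SE), adjusted p = 0.00306). Hsd17b4, the D-bifunctional protein that carries out the next 2 steps, was measured at 7.53, 14.2, 12.1, 7.27 and 9.98 CPM in dorsal libraries 1 to 5. Ventral levels of Hsd17b4 were 17.9, 18.2, 14.3, 17.1 and 19.6 CPM. The highest dorsal library, replicate 2, came within a small margin of the lowest ventral library, replicate 3, and Hsd17b4 was 1.71-fold higher in the ventral samples (log2 fold change -0.77 ± 0.20 (SE), adjusted p = 0.0107). Decr2, the peroxisomal counterpart of Decr1 (ENSMUSG00000036775, chr17:26081208-26090337, minus strand), was measured at 53.2, 33.3, 38.8, 48.5 and 50.9 CPM in dorsal libraries 1 to 5. Ventral levels of Decr2 were 136, 60.3, 58.4, 64.4 and 69.8 CPM. Ventral replicate 1 stood apart from the other ventral libraries, and Decr2 was ventral-enriched by 1.76-fold (log2 fold change -0.81 ± 0.23 (SE), adjusted p = 0.0162). When that library was left out, Decr2 was at a log2 fold change of -0.51 (adjusted p = 0.0221), under the fold threshold. With the share of reads on no gene as a covariate Decr2 was at -0.0062 (adjusted p = 0.995), in a fit that cannot separate the share from the group.

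The remaining 2 enzymes did not pass the test. Ehhadh, the L-bifunctional protein and the lowest peroxisomal enzyme per length, was measured at 0.753, 0.52, 1.57, 0.901 and 1.81 CPM in dorsal libraries 1 to 5. Ventral levels of Ehhadh were 0.0555, 2.38, 9.03, 3.23 and 3.97 CPM. Ventral replicate 1 was the lowest of all 10 libraries and the other 4 ventral libraries were the highest 4. Its log2 fold change was -1.66 ± 0.69 (SE) (adjusted p = 0.0751), and without ventral replicate 1 it was -2.03 (adjusted p = 0.00914). Acaa1a, the peroxisomal thiolase, was measured at 1.6 to 9.49 CPM in dorsal and 5.1 to 10.2 CPM in ventral libraries (log2 fold change -0.52 ± 0.33 (SE), adjusted p = 0.243). Reads of Acaa1a can be split with its near-identical neighbour Acaa1b, which was listed at 0 to 0.065 CPM in dorsal and 0 to 0.19 CPM in ventral libraries, so its level is uncertain.

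Of the 4 peroxins that recognise cargo or dock it at the membrane, 2 were ventral-enriched, where 9.85% of all genes tested were. Pex7, the receptor for proteins with the amino-terminal targeting signal, among them the thiolase (ENSMUSG00000020003, chr10:19853900-19907689, minus strand), was measured at 15.4, 24.6, 31.6, 21.9 and 21.6 CPM in dorsal libraries 1 to 5. Ventral levels of Pex7 were 42.9, 38.9, 36.6, 36.9 and 37.9 CPM. The ventral libraries were close together and all above the dorsal ones, and Pex7 was 1.66-fold higher in the ventral samples (log2 fold change -0.73 ± 0.16 (SE), adjusted p = 0.00422). Pex5, the receptor for the carboxy-terminal signal that most peroxisomal enzymes carry, was measured at 6.68 to 11.4 CPM in dorsal and 10.2 to 18.2 CPM in ventral libraries and did not pass (log2 fold change -0.52 ± 0.23 (SE), adjusted p = 0.0933); it passed at -0.67 without dorsal replicate 2. Pex13, part of the docking complex (ENSMUSG00000020283, chr11:23646479-23665959, minus strand), was measured at 45.8, 38.3, 31.3, 33.8 and 35.6 CPM in dorsal libraries 1 to 5. Ventral levels of Pex13 were 59.1, 57.7, 72.8, 54.7 and 54.5 CPM. The groups did not overlap, ventral replicate 3 was the highest library, and Pex13 was 1.62-fold higher in the ventral samples (log2 fold change -0.70 ± 0.14 (SE), adjusted p = 0.00196). Pex14, its partner and the lowest peroxin per length in both groups, was measured at 2.26, 6.56, 9.0, 6.19 and 6.99 CPM in dorsal libraries 1 to 5. Ventral levels of Pex14 were 8.6, 13.6, 7.85, 11.3 and 10.01 CPM. The groups overlapped and the difference did not pass (log2 fold change -0.68 ± 0.27 (SE), adjusted p = 0.0656), and 28.3% of the Pex14 exons lie over the annotated gene Gm17029, so its counts are uncertain.

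After cargo has been released, receptors are ubiquitinated by a complex that includes Pex2 and Pex10 and pulled out of the membrane by ATPases, Pex6 among them, which Pex26 anchors. Pex10 was measured at 4.89, 5.78, 4.23, 7.33 and 6.21 CPM in dorsal libraries 1 to 5. Ventral levels of Pex10 were 7.77, 10.8, 11.2, 11.7 and 11.7 CPM. The ventral libraries were all above the dorsal ones, least so replicate 1, and Pex10 was ventral-enriched by 1.84-fold (log2 fold change -0.88 ± 0.22 (SE), adjusted p = 0.00895). Pex2 did not differ beyond its spread, at 10.1 to 23.6 CPM in dorsal and 10.04 to 24.3 CPM in ventral libraries (log2 fold change 0.0061 ± 0.26 (SE), adjusted p = 0.989). Pex6 was measured at 0.659, 9.81, 3.27, 3.9 and 3.93 CPM in dorsal libraries 1 to 5. Ventral levels of Pex6 were 15.6, 14.4, 7.35, 16.7 and 12 CPM. Dorsal replicate 2 lay above ventral replicate 3, dorsal replicate 1 was the lowest library, and Pex6 was ventral-enriched by 2.94-fold (log2 fold change -1.56 ± 0.37 (SE), adjusted p = 0.00636). Its anchor Pex26 was measured at 10.4 to 18.5 CPM in dorsal and 6.67 to 36.5 CPM in ventral libraries, with the highest and the lowest value in ventral replicates 1 and 3, and did not pass (log2 fold change -0.50 ± 0.34 (SE), adjusted p = 0.273). Without ventral replicate 1 its log2 fold change was -0.06.

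Pex3, Pex16 and Pex19 insert proteins into the peroxisomal membrane. Pex16 was measured at 1.69, 7.8, 6.0, 5.1 and 6.44 CPM in dorsal libraries 1 to 5. Ventral levels of Pex16 were 7.99, 9.42, 10.2, 10.8 and 10.2 CPM. Dorsal replicate 1 was the lowest library, the groups did not overlap by a narrow margin, and Pex16 was ventral-enriched by 1.74-fold (log2 fold change -0.80 ± 0.27 (SE), adjusted p = 0.0323). Its adjusted p was the largest among the 12 ventral-enriched members, and the call was lost at adjusted p values of 0.0518 to 0.0791 without dorsal replicate 3, 4 or 5 or ventral replicate 4 or 5, and for the fold threshold without dorsal replicate 1, at a log2 fold change of -0.62. Pex19, the carrier of these membrane proteins and the highest peroxin per length in the ventral samples, was measured at 63.5, 78.6, 68.9, 68.3 and 68.2 CPM in dorsal libraries 1 to 5. Ventral levels of Pex19 were 97.3, 99, 113, 93.2 and 90.7 CPM. The groups were well apart, and Pex19 passed the test with a log2 fold change of -0.50 ± 0.11 (SE) (adjusted p = 0.00337) without reaching the fold threshold. Pex3 was measured at 24.6 to 30.3 CPM in dorsal and 26.8 to 36.2 CPM in ventral libraries (log2 fold change -0.19 ± 0.14 (SE), adjusted p = 0.311). Pex11a, which elongates peroxisomes before division and was the highest peroxin per length in the dorsal samples, was measured at 59.7, 52.4, 76.2, 82.8 and 82.2 CPM in dorsal libraries 1 to 5. Ventral levels of Pex11a were 52.5, 72.2, 59.9, 50.6 and 50.8 CPM. It was the peroxin with the largest log2 fold change in the dorsal direction, 0.32 ± 0.15 (SE), and did not pass (adjusted p = 0.122).

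Of the 3 members of another or a mixed compartment 0 passed edgeR's test, with 0 at an unadjusted p below 0.05 and 0 in DESeq2. Cpt1c, the brain form of the carnitine acyltransferases, which sits in the endoplasmic reticulum, was measured at 9.6, 14.6, 23.6, 18.2 and 19.96 CPM in dorsal libraries 1 to 5. Ventral levels of Cpt1c were 13.6, 17.4, 14.4, 14.2 and 14.3 CPM. The groups overlapped, with a log2 fold change of 0.25 ± 0.21 (SE) (adjusted p = 0.374). Eci2, an enoyl-CoA isomerase of peroxisomes and mitochondria, had a log2 fold change of -0.46 ± 0.24 (SE) (adjusted p = 0.148), and of -0.68 (adjusted p = 0.0203) without dorsal replicate 1. Acad11, a dehydrogenase of long chains and the lowest of the 3 per length in the ventral samples, was measured at 18, 12.8, 18.7, 17.7 and 21.5 CPM in dorsal libraries 1 to 5. Ventral levels of Acad11 were 18.9, 26.2, 16, 14.5 and 13.2 CPM. These values overlapped (log2 fold change 0.02 ± 0.21 (SE), adjusted p = 0.954).

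**Figure D4:**
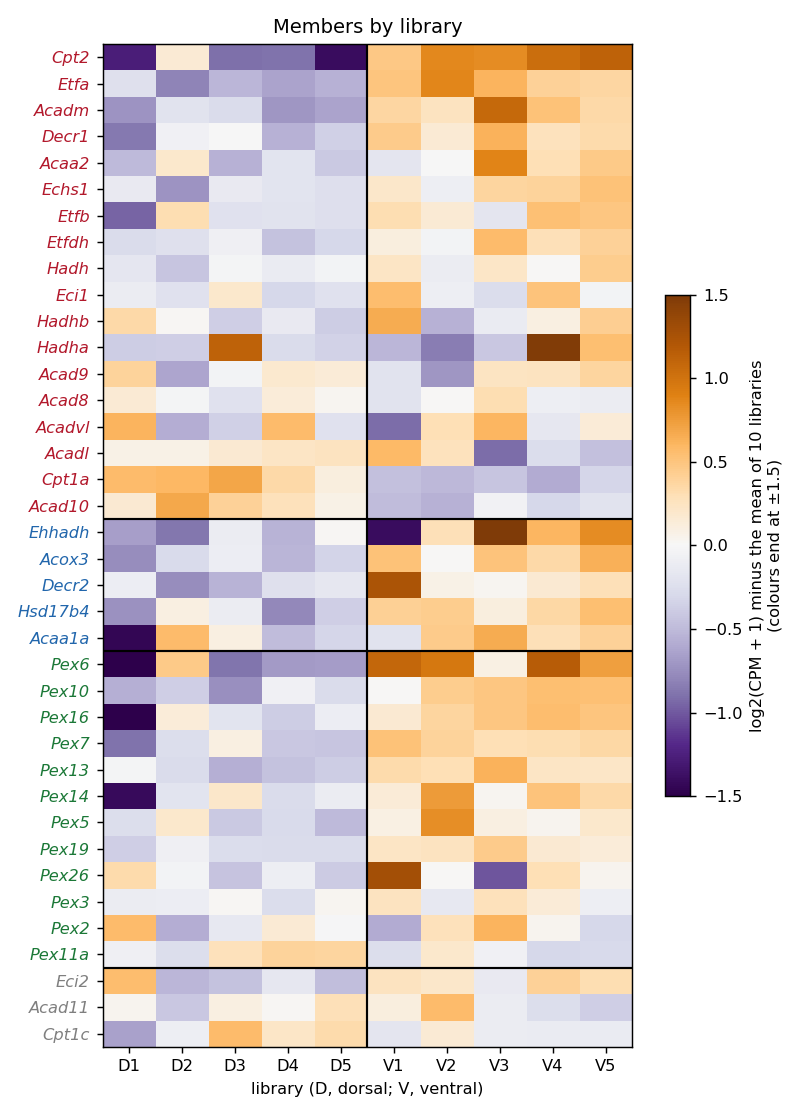
Deviation of log2(CPM + 1) from the mean of the 10 libraries for each of the 38 tested members (rows, by class and log2 fold change) in each library (columns D1 to D5 dorsal, V1 to V5 ventral). Peroxisomal enzymes and peroxins are mostly below their mean in the dorsal and above it in the ventral columns, and Cpt1a and Acad10 are the mitochondrial rows with the strongest contrast in the opposite direction.

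The members differed in how evenly the libraries of a group shared the signal. Dorsal replicate 1 had the lowest of the dorsal values in 13 of the 38 tested members and dorsal replicate 2 in 11, while ventral replicates 1, 2 and 3 had the lowest ventral value in 10, 11 and 10. Dorsal replicate 1 was the lowest dorsal library in Pex6, Pex14, Pex16, Pex7, Acaa1a, Etfb and Decr1 and at the same time highest in Acad9, Pex2, Pex13 and Hadhb. When any 1 library was left out the number of ventral-enriched members stayed between 11 and 15, the highest without dorsal replicate 2 or without ventral replicate 1, and the number of dorsal-enriched members between 1 and 2.

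Levels can be compared between members per length, as CPM per kilobase of exonic sequence. Among mitochondrial genes the highest were Etfa, at 13.8 ± 2.16 in dorsal and 30.2 ± 4.53 in ventral samples (mean ± SD, n = 5), and Acadl, at 14.5 ± 0.901 and 12.3 ± 5.19. Acad10 and Acads were lowest, at 0.142 ± 0.0525 and 0.0313 ± 0.0282 for Acad10 and 0.108 ± 0.103 and 0.144 ± 0.214 for Acads. In dorsal samples Etfa and Acadl did not differ beyond their SD, whereas in ventral samples Etfa was above Acadl. Peroxisomal enzymes ranged from Decr2, at 16.9 ± 3.2 and 29.3 ± 12.4 CPM per kilobase, to Ehhadh, at 0.372 ± 0.185 and 1.25 ± 1.11. The peroxins were led by Pex11a, at 22.2 ± 4.34 and 18 ± 2.89, and Pex19, at 18.2 ± 1.45 and 25.9 ± 2.32, so that their order differed between the groups, within their SDs in the dorsal samples. Pex14 was lowest at 0.988 ± 0.391 and 1.64 ± 0.367. Cpt1a and Cpt2 also changed order, with 0.86 ± 0.155 against 0.24 ± 0.331 CPM per kilobase in dorsal and 0.386 ± 0.0367 against 1.62 ± 0.332 in ventral samples.

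**Figure D5:**
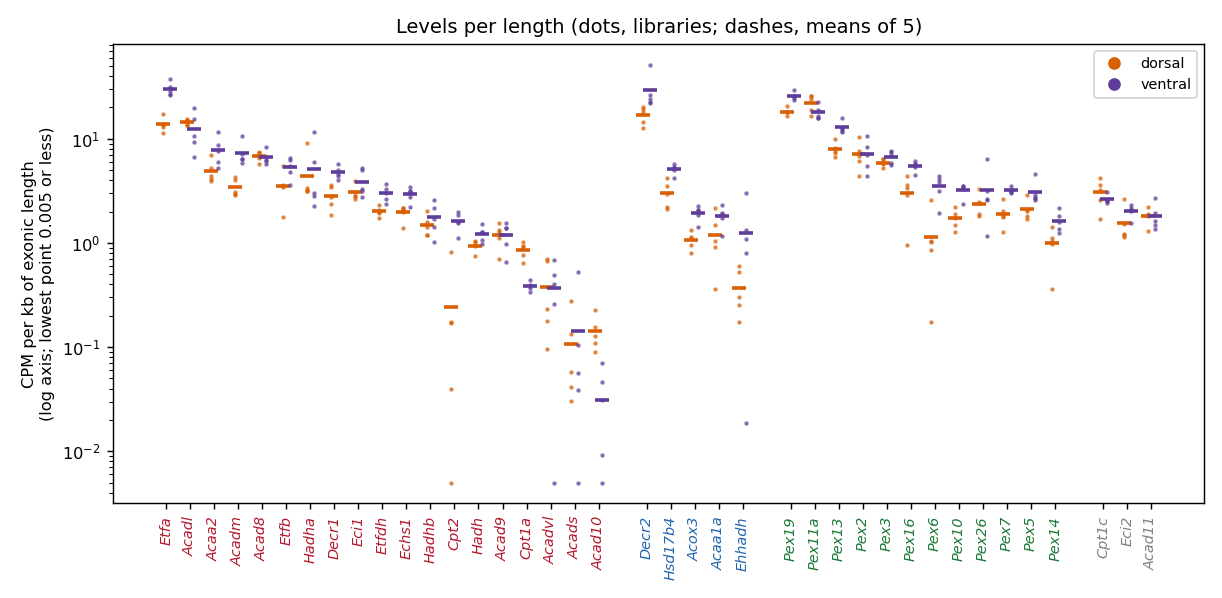
CPM per kilobase of exonic length in each library (dots) and its group mean (dashes) for the 39 members on a log axis, by class and ordered by the ventral mean; values of 0.005 or less are drawn at 0.005. Etfa, Acadl, Decr2, Pex19 and Pex11a are the highest members, and Cpt1a and Cpt2 change order between dorsal and ventral samples.

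The median exonic length of the 39 members was 3943 bases and the median GC content 49.6%, against 4030.5 bases and 48.5% over all genes tested. Correction for GC content and length moved most the 3 members with the lowest GC content, Pex3 (38.5%), Pex13 (38.6%) and Hadhb (39.1%). Their log2 fold changes went from -0.19 to -0.81 (adjusted p = 0.000511) for Pex3, from -0.70 to -1.31 (adjusted p = 3.26e-05) for Pex13 and from -0.34 to -0.87 (adjusted p = 0.0149) for Hadhb. Which of these values is nearer to the amount of RNA was not tested.

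Other genes of the same pathways were read from lists set beside the 39. Of 19 tested genes of mitochondrial fatty acid handling and related acyl-CoA breakdown, 6 passed the test, all in the ventral direction (14.6% of all genes tested did so, and 19% in the dorsal direction), with a median log2 fold change of -0.20. The 4 called genes were Mlycd, which removes malonyl-CoA, the inhibitor of Cpt1a, at 5.98 ± 1.03 CPM in dorsal and 14.6 ± 1.59 CPM in ventral samples (mean ± SD, n = 5, log2 fold change -1.28 ± 0.19 (SE), adjusted p = 0.000407), Gcdh of lysine breakdown (log2 fold change -1.07 ± 0.19 (SE), adjusted p = 0.00112), Auh of leucine breakdown (-0.85 ± 0.11 (SE), adjusted p = 0.000151) and the thiolase Acat1 (-0.61 ± 0.11 (SE), adjusted p = 0.000986). Of 27 tested genes outside the 39 that were listed as peroxisomal, 3 passed in the ventral and 2 in the dorsal direction. This stood against the same 14.6% and 19% of all genes, and the median over the list was -0.0092. Crot, which makes carnitine esters of shortened chains for export, was measured at 14.7, 8.51, 12.9, 11.2 and 12.6 CPM in dorsal libraries 1 to 5. Ventral levels of Crot were 23, 24.1, 27.1, 19.4 and 16.1 CPM. The groups did not overlap, and Crot was ventral-enriched (log2 fold change -0.87 ± 0.20 (SE), adjusted p = 0.00479). Abcd4, an ABC transporter, was dorsal-enriched at 1.6 to 3.3 CPM in dorsal and 0.44 to 1.7 CPM in ventral libraries, with overlap (log2 fold change 1.29 ± 0.40 (SE), adjusted p = 0.0223). Abcd4 is 1 of the 2 genes of this list counted above in the dorsal direction. Whether the Abcd4 protein resides in peroxisomes was not examined here. Of the 5 genes with a Pex symbol outside the 39, 3 had a log2 fold change below 0, the median was -0.015, and 1 passed the test, in the dorsal direction: Pex5l, a brain relative of Pex5 known as an auxiliary subunit of HCN channels and not as a peroxin, at 159 ± 7.33 and 117 ± 19.3 CPM (log2 fold change 0.44 ± 0.12 (SE), adjusted p = 0.0106), which did not reach the fold threshold.

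Regulators of these pathways were measured in the same libraries. Of 12 tested, 2 passed in the ventral and 1 in the dorsal direction, where 14.6% and 19% of all genes did. Esrrg, an estrogen-related receptor, was measured at 32.2, 43.5, 26.6, 27.3 and 27.7 CPM in dorsal libraries 1 to 5. Ventral levels of Esrrg were 51.2, 61.9, 44.1, 44.7 and 44 CPM. All ventral libraries were above all dorsal ones (log2 fold change -0.64 ± 0.16 (SE), adjusted p = 0.00959). Rxrg, a partner of PPAR receptors, was low at 0.204 to 2.14 CPM in dorsal and 1.69 to 4.27 CPM in ventral libraries, with overlap (log2 fold change -1.71 ± 0.50 (SE), adjusted p = 0.0177). Nrf1 was dorsal-enriched, at 12.5 to 27.3 and 11.5 to 14.1 CPM (log2 fold change 0.84 ± 0.21 (SE), adjusted p = 0.00798), with overlap through dorsal replicate 2. Ppargc1a, a coactivator of both fatty acid oxidation and mitochondrial growth, did not pass at 174 ± 16.7 and 205 ± 8.25 CPM (log2 fold change -0.23 ± 0.09 (SE), adjusted p = 0.0684), although its groups did not overlap. Ppara, the receptor that drives these genes in liver, did not pass the low-count filter, at 0.136 to 3.77 CPM in dorsal libraries, the highest being replicate 2, and 0 to 0.44 CPM in ventral libraries.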

How the data were processed

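The deposited files hold counts per gene that the authors made from 50-base paired-end reads with STAR 2.5.2b on GRCm38 and HTSeq-count 0.7.2. The annotation release and the strand setting are not given in the sources used here. RNA went through whole-transcriptome amplification from a small input before library construction, which can favour some lengths and GC contents. Here, symbols, coordinates and exonic lengths came from GENCODE M21 (GRCm38), with 54809 of 54838 identifiers matched. Rows that name no gene were left out of library sizes; reads on no gene made up 11.6 to 33.9% and ambiguous reads 5.92 to 8.66% of each library, from 11138676 to 20594364 counts on genes.

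The 16806 genes that exceeded 1 CPM (on library totals, before TMM) in 2 or more libraries were fitted with edgeR 4.0.16 (TMM factors, glmQLFit with legacy set to false, glmQLFTest) in R 4.3.3, 5 dorsal against 5 ventral libraries, without covariates, and adjusted by Benjamini-Hochberg. A call needed an adjusted p below 0.05 and a log2 ratio of mean CPM plus 1 beyond 0.58. The fit was tested on simulated counts. Class medians carry no test. Alternatives used other scaling factors, filters and thresholds, DESeq2 1.42.0, edgeR's likelihood-ratio test, a replicate block, corrections for GC content and length (mgcv 1.9.3) and for the share of reads on no gene, and each library left out. Dorsal and ventral pools drew on the same mice, but which pools share mice is not given in the sources used here. Same-numbered libraries showed no shared deviation, with a correlation within a number that averaged 0.016. This cannot tell whether they share mice, so the main fit used no pairing. The members and lists were chosen with earlier results of these data known. All 39 members were accounted for, and values by library are given for members called, past adjusted p 0.05, or highest or lowest per length in their class. Genes of the related lists are named where called, and Ppara and Ppargc1a in any case. A few more members, Pex5l, Slc25a20, Crat and Slc22a5 were named after their values were seen. Targeting signals in proteins were not analysed here, and some genes of these pathways are not reported here.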

Additional observations from a re-analysis of the deposited data

Results flagged for a closer look

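Of the 76 groups of 5 libraries checked (38 members, dorsal and ventral), 10 had a highest or lowest library separated from the others by more than 0.71 of the group's range, Dixon's critical value for 5 samples, and chance alone flags about 1 in 20 such groups. In the dorsal group these were Cpt2, with replicate 2 highest at 1.95 CPM, Hadha, with replicate 3 highest at 79.3 CPM, Echs1, with replicate 2 lowest at 11.6 CPM, and Eci2, with replicate 1 highest at 14.5 CPM. In the ventral group they were Acadm, with replicate 3 highest at 41.6 CPM, Decr2, with replicate 1 highest at 136 CPM, Pex5, with replicate 2 highest at 18.2 CPM, Pex10, with replicate 1 lowest at 7.77 CPM, Pex13, with replicate 3 highest at 72.8 CPM, and Cpt1c, with replicate 2 highest at 17.4 CPM. Of these genes, Decr2 lost its call when the library in question was left out, at a log2 fold change of -0.51 (edgeR, adjusted p = 0.0221), and Eci2 passed both thresholds without dorsal replicate 1, at -0.68 (adjusted p = 0.0203).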

How the results depend on the processing

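With 5 pools a group the precision is set by the spread between pools, and members under about 1 CPM (Acads, Acad10, Acadvl, dorsal Cpt2) rest on few counts. Ventral-enriched members numbered 19 with GC and length correction, 19 with the replicate block and GC and length correction together, 6 with the share of reads on no gene as a covariate and 11 to 15 with a library left out, against 12. Where GC and length were corrected, the fold threshold was on edgeR's log2 fold change, which without correction gave 13. With the covariate the fold threshold stayed on mean CPM plus 1. Dorsal-enriched members numbered 1 with CPM above 1 in at least 5 libraries, 1 with the dispersions of edgeR 3 (an alternative chosen after seeing the data), 1 at adjusted p below 0.01, 0 with the covariate (DESeq2 gave 2 without it) and 1 to 2 with a library left out, the lower count without dorsal replicate 2 or 3, where Acad10 failed the filter. The median log2 fold change with the covariate was -0.51 for mitochondrial genes, -1.27 for peroxisomal enzymes and -0.69 for peroxins. The covariate did not overlap between the groups, so its fit cannot separate the 2. For peroxins it was -0.71 with GC and length correction and -0.78 with the block as well. That correction moved the median of all genes from -0.0044 to -0.14, and relative to it the peroxin medians were -0.57 and -0.63, against -0.59 without it. Leaving out a library gave -0.55 (without dorsal replicate 3) to -0.37 for mitochondrial genes, -0.89 to -0.77 for peroxisomal enzymes and -0.68 (without dorsal replicate 2) to -0.56 for peroxins. The other settings kept these counts within 1.5 times and the medians within 1 SD of the library medians.

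Same-numbered libraries showed no clear shared deviation (0 of 5 pairs with a correlation over 0.1, and 2 of 5 numbers correlating best with themselves). Shared mice would not have to show in such a correlation, so pairing by number stays unknown. With the replicate block, 13 members were ventral-enriched and 2 dorsal-enriched, Ehhadh being the gene gained (log2 fold change -1.74, adjusted p = 0.0275), and the medians were -0.36, -0.79 and -0.62.

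Signs changed only in members that did not pass the test, and the cause was not tested. With the covariate Hadhb was at 0.40, Pex26 at 0.87, Eci2 at 0.41, Cpt1c at -0.32 and Acad9 at 0.23. Acad9 was also at 0.033 in DESeq2, 0.0033 in the likelihood-ratio test, 0.0065 with the block and 0.0042 with edgeR 3 dispersions. GC correction gave -0.18 for Acad8, -0.28 for Pex2 and -0.27 for Acad11, and with the block -0.18, -0.28 and -0.26. Pex2 was at -0.021 in the likelihood-ratio test, -0.00074 with the block and -0.021 with edgeR 3 dispersions, and Acad11 at -0.0022 in the likelihood-ratio test and -0.0027 with edgeR 3 dispersions. With a library left out Acadvl ranged from -0.31 to 0.41, Acad8 from -0.010 to 0.13, Acad9 from -0.17 to 0.11, Hadha from -0.71 to 0.28, Pex2 from -0.14 to 0.18 and Acad11 from -0.080 to 0.17.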

Other observations

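The gene pairs that split one reaction between mitochondria and peroxisomes were measured side by side in the same libraries. The 2,4-dienoyl-CoA reductases were both ventral-enriched, with log2 fold changes, dorsal over ventral, of -0.74 ± 0.19 (SE) for mitochondrial Decr1 and -0.81 ± 0.23 (SE) for peroxisomal Decr2 (n = 5 a group, edgeR). The thiolases Acaa2 and Acaa1a were at -0.63 ± 0.26 (SE) and -0.52 ± 0.33 (SE) and neither passed the test. Among the enzymes that open the cycle, mitochondrial Acadm was ventral-enriched at -1.06 ± 0.20 (SE), as was peroxisomal Acox3 at -0.86 ± 0.18 (SE).

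Astrocyte markers did not all lie in 1 direction in these libraries. Aqp4, a water channel of astrocytes, was dorsal-enriched at 44.5, 37.2, 44.9, 39.2 and 39.4 CPM in dorsal libraries 1 to 5. Ventral levels of Aqp4 were 25.2, 12.8, 30.1, 23.2 and 25.6 CPM. Gjb6, a gap junction protein of astrocytes, was dorsal-enriched at 20.5 ± 3.68 against 7.39 ± 1.07 CPM (mean ± SD, n = 5). Every dorsal library lay above every ventral one in both genes. Of the 10 astrocyte markers 5 were dorsal-enriched (15.7% of all genes tested were) and 1, Aldh1l1, was ventral-enriched (9.85% of all genes). Aldh1l1 was low, at 0.0941 to 2.47 CPM in dorsal and 1.55 to 6.16 CPM in ventral libraries with overlap. Aldoc, at 133 ± 16.7 and 196 ± 30.7 CPM, passed the test in the ventral direction without overlap and without reaching the fold threshold (log2 fold change -0.56 ± 0.13 (SE), adjusted p = 0.00532, edgeR). The remaining 3, Gja1, S100b and Fgfr3, did not pass. The part of such transcripts in the levels of the 39 genes was not tested.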
